A study of Mus musculus with 16 samples.

Results

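The 10 genes described here belong to the unfolded protein response of the endoplasmic reticulum: Hspa5, Hsp90b1, Pdia4, Sdf2l1, Creld2, Dnajb9, Herpud1, Xbp1, Atf4 and Ddit3. They were found on the array by gene name, 10 of 20811 named genes, through 13 probes, and were chosen by their function and by measured values of the same livers: their log2 changes in the 5 h livers with stem cells against none and in untreated livers at 5 h against 2 h. Those contrasts, and the difference of stem cell effects built on them, are therefore given as a description, with no test per gene, and where a count of genes past a threshold is printed for them nothing is read from it. The other liver contrasts, and those of cells against liver, share livers with them.

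The arrays measured RNA from female C57Bl/6 mice that had all been injected with concanavalin A (300 µg), a lectin from jack bean that stimulates T cells and injures the liver. Stem cells were isolated from inguinal fat of the same strain and expanded in culture, and 100000 per mouse were given through the tail vein either with the lectin (0 h) or 3 h after it. The 12 livers form 4 groups of 3 mice: 2 h after concanavalin A without stem cells (mice 11, 12 and 13), 2 h with stem cells at 0 h (mice 8, 9 and 10), 5 h without stem cells (mice 4, 5 and 6) and 5 h with stem cells at 3 h (mice 1, 2 and 3). Hepatic inflammatory cells, taken at 5 h, form 2 groups of 2 samples: without stem cells (samples 983 and 985) and with stem cells at 3 h (samples 987 and 989). No mouse without concanavalin A is among the 16 samples, so no resting level is given. The labels do not say whether the samples of inflammatory cells came from separate mice, and their p-values measure only the spread between these samples. For samples 983 and 985 the source label also mentions stem cells, while the treatment and description labels do not, and they were used as untreated.

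The unfolded protein response adjusts the folding capacity of the endoplasmic reticulum, the compartment in which secreted and membrane proteins are folded. Membrane sensors start it: IRE1 (gene Ern1) splices the messenger RNA of Xbp1, PERK (gene Eif2ak3) phosphorylates eIF2 alpha and so favours translation of ATF4, and ATF6 is cleaved to release a transcription factor. ATF6 and spliced XBP1 raise chaperones and degradation factors, while ATF4 raises amino acid and stress genes, among them Ddit3. Hepatocytes secrete most plasma proteins and hold an extensive endoplasmic reticulum.

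The promoters of several of these genes carry known response elements of this pathway. The genes were chosen in part by their function in it, so the matches are a description and no independent support. RefSeq promoter windows on GRCm38.p6, from 250 bases before to 50 bases after the start of a gene, matched all 10 genes. The endoplasmic reticulum stress element, ERSE, searched on both strands as CCAAT, 9 free bases and CCACG, was found in 3 of the 10 genes (Hspa5, Hsp90b1 and Creld2), against 0.119% of all 32851 windows and 7 of 63 genes of a wider pathway list. The shorter ERSE-II, searched as ATTGG, 1 free base and CCACG, was found in Herpud1, against 0.0365% of all windows. The stretches that hold the matches are printed 5′ to 3′ on the strand of the gene, with the fixed letters of a motif in capitals.
Hspa5, chr2:34772017-34772051, plus strand: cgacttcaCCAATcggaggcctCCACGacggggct
Creld2, chr15:88819512-88819546, plus strand: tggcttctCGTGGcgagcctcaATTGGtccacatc
Hsp90b1, chr10:86705525-86705664, minus strand: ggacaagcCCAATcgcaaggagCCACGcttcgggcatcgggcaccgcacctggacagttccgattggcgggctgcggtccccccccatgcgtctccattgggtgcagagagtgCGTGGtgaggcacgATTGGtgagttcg
Herpud1, chr8:94386309-94386395, plus strand: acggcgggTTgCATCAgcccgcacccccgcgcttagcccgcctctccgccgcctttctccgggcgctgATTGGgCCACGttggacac
Hspa5 carries ERSE in the forward orientation, Creld2 in the reverse one, and Hsp90b1 carries 1 match in each. Herpud1 holds ERSE-II and, farther from its start, the C/EBP-ATF element (searched as TGATGNAA, found in 3.97% of all windows). The element UPRE, searched as TGACGTGG, was in 0 of the 10 windows and 0.676% of all windows. No 2 of these matches overlap. Each match describes letters in this window and does not show that a factor binds there.

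All values below are log2 signal relative to the 75th percentile of the array, and levels are compared only within a gene. On each array 52.1% to 62.5% of spots were well above background, and the probes of the 10 genes were so on all 16 arrays. The livers were hybridised on 3 slides with 1 liver of each group on each. At 2 h the array position on the slide followed the group, so that position and stem cells cannot be told apart, while at 5 h the positions were swapped on slide 3. On every slide the 2 h livers held positions 1 and 2 and the 5 h livers positions 3 and 4. Time and position therefore cannot be told apart in the livers. The inflammatory cells lay on a slide of their own, so tissue and slide cannot be told apart. On it, untreated samples held positions 1 and 2 and treated ones 3 and 4, so position and stem cells are not separable either. Among the 2 h livers, mice 10 and 13 stood apart: the log2 summed level of 6 neutrophil markers was 5.14 in mouse 10 and 3.86 in mouse 13, against 6.15 to 6.64 in the other 4. Summed hepatocyte markers were 11.3 to 12.1 in livers and 6.31 to 8.28 in the inflammatory cells, and summed leukocyte markers 3.59 to 4.15 and 8.38 to 9.06. In such bulk samples, fewer cells of a type and less RNA per cell cannot be told apart.

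Hspa5 encodes BiP, the main Hsp70 chaperone of the endoplasmic reticulum and the protein that holds the sensors inactive (probe at chr2:34598119-34598178, build mm8). Its level in untreated livers was 6.02, 6.63 and 5.74 at 2 h (mice 11, 12 and 13) and 7.31, 7.15 and 6.90 at 5 h (mice 4, 5 and 6). With stem cells it was 6.62, 6.06 and 5.74 at 2 h (mice 8, 9 and 10) and 6.44, 6.45 and 6.41 at 5 h (mice 1, 2 and 3). The untreated 5 h livers lay above every other liver, and the treated 5 h livers lay within the range of the 2 h livers and close together. The inflammatory cells had 6.89 and 6.21 without stem cells (samples 983 and 985) and 5.98 and 6.24 with them (samples 987 and 989).

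Hsp90b1 encodes GRP94, the Hsp90 chaperone of the same compartment (probe at chr10:86120824-86120883, mm8). Its untreated livers had 6.79, 7.15 and 6.61 at 2 h and 7.51, 7.35 and 7.24 at 5 h. Livers with stem cells had 7.37, 7.08 and 6.57 at 2 h and 6.98, 6.71 and 6.89 at 5 h. At 5 h the 2 groups did not overlap, but mouse 8, treated at 2 h, reached the level of the untreated 5 h livers. Its other probe gave the same signs in all 9 comparisons. Inflammatory cells had 6.80 and 4.89 without stem cells and 5.75 and 5.65 with them, so the 2 untreated samples enclosed the treated ones.

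Pdia4 encodes a protein disulfide isomerase, which forms and rearranges disulfide bonds (probe at chr6:47726103-47726162, mm8). Its level overlapped between all 4 liver groups: 2.73, 2.58 and 2.66 at 2 h untreated, 2.73, 3.03 and 2.62 at 2 h with stem cells, 2.37, 3.19 and 2.75 at 5 h untreated and 2.07, 2.31 and 3.06 at 5 h with stem cells. The inflammatory cells had 2.13 and 0.17 without stem cells and 1.27 and 1.38 with them, the first of these being the only one that reached the liver range.

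Sdf2l1 encodes a partner of the BiP chaperone cycle (probe at chr16:17043896-17043955, mm8). Untreated livers had 1.24, 1.97 and 1.75 at 2 h and 2.24, 2.79 and 2.14 at 5 h. Livers with stem cells had 2.52, 2.10 and 1.29 at 2 h and 1.30, 0.77 and 1.52 at 5 h. The treated 5 h livers lay below the untreated 5 h livers, and the treated 2 h livers spanned both ranges. Inflammatory cells had 2.27 and 0.79 without stem cells and 1.42 and 1.90 with them.

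Creld2 encodes an endoplasmic reticulum protein with epidermal growth factor-like domains that is induced by stress in this compartment (probe at chr15:88654333-88654392, mm8). It had 4.50, 5.40 and 4.64 in untreated livers at 2 h and 6.91, 6.58 and 6.52 at 5 h. With stem cells it had 5.74, 4.67 and 3.96 at 2 h and 5.22, 4.88 and 5.05 at 5 h. The 3 untreated livers at 5 h stood above all 13 other samples, and the other 3 liver groups overlapped. Inflammatory cells had 4.84 and 3.54 without stem cells and 3.92 and 4.20 with them.

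Dnajb9 encodes ERdj4, a cochaperone that brings misfolded proteins to BiP (probe at chr12:45076612-45076671, mm8). Untreated livers had 2.98, 3.24 and 2.60 at 2 h and 4.00, 2.58 and 3.79 at 5 h. Mouse 5 therefore lay with the treated livers, which had 2.61, 2.48 and 2.68 at 2 h and 2.46, 2.63 and 2.37 at 5 h, while mice 4 and 6 lay above all other samples. The inflammatory cells had 1.99 and 1.98 without stem cells and 2.57 and 1.88 with them. The other 2 probes of Dnajb9 had the same signs, except that 1 of them gave 0.16 for treated livers at 5 h against 2 h and 0.43 for treated cells against liver, where the probe used gave -0.11 and -0.26.

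Herpud1 encodes a membrane protein of endoplasmic reticulum-associated degradation, the route by which misfolded proteins leave for the proteasome (probe at chr8:97284346-97284405, mm8). It ran against the chaperones in time: untreated livers had 5.51, 5.31 and 6.20 at 2 h and 5.18, 3.38 and 5.20 at 5 h. Treated livers had 6.50, 6.10 and 6.72 at 2 h and 3.78, 4.30 and 4.08 at 5 h. Both 5 h groups lay below both 2 h groups, and mouse 5 was again the low one of the untreated 5 h livers. Inflammatory cells had 3.98 and 3.67 without stem cells and 3.97 and 4.15 with them, close to the treated 5 h livers.

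Xbp1 encodes the transcription factor whose messenger RNA is spliced by IRE1 (probe at chr11:5424970-5425029, mm8; spliced and unspliced forms were not measured separately). Untreated livers had 4.74, 4.49 and 3.65 at 2 h and 4.96, 5.44 and 4.97 at 5 h, and treated livers had 3.79, 4.05 and 3.82 at 2 h and 5.41, 5.17 and 5.38 at 5 h. All 6 livers at 5 h lay above all 6 at 2 h, and at 5 h the treatments overlapped. The inflammatory cells were far lower than any liver, with 1.62 and 2.25 without stem cells and 0.44 and 1.66 with them.

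Atf4 encodes the transcription factor of the PERK branch (probe at chr15:80083904-80083963, mm8), which is controlled largely at translation, a step that arrays do not measure. Untreated livers had 2.56, 2.05 and 2.31 at 2 h and 3.15, 3.14 and 3.31 at 5 h, and treated livers 2.01, 2.02 and 2.65 at 2 h and 2.54, 3.09 and 2.83 at 5 h. The untreated 5 h livers were highest among the livers, by a narrow margin over mouse 2. The 4 samples of inflammatory cells exceeded every liver, with 4.06 and 3.89 without stem cells and 3.64 and 3.60 with them.

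Ddit3 encodes CHOP, a transcription factor that ATF4 induces and that promotes cell death under lasting stress (probe at chr10:126698411-126698714, mm8). Untreated livers had -1.11, -1.02 and -0.14 at 2 h and 0.99, -0.72 and 0.50 at 5 h. Treated livers had -0.81, -0.86 and -0.49 at 2 h and -1.47, -0.76 and -1.43 at 5 h. Mice 4 and 6 were clearly higher than the treated 5 h livers, whereas mouse 5 was separated from mouse 2 by a margin of hundredths. In the inflammatory cells the order was the opposite, with -0.06 and 0.10 without stem cells and 0.73 and 0.46 with them.

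**Figure D1:**
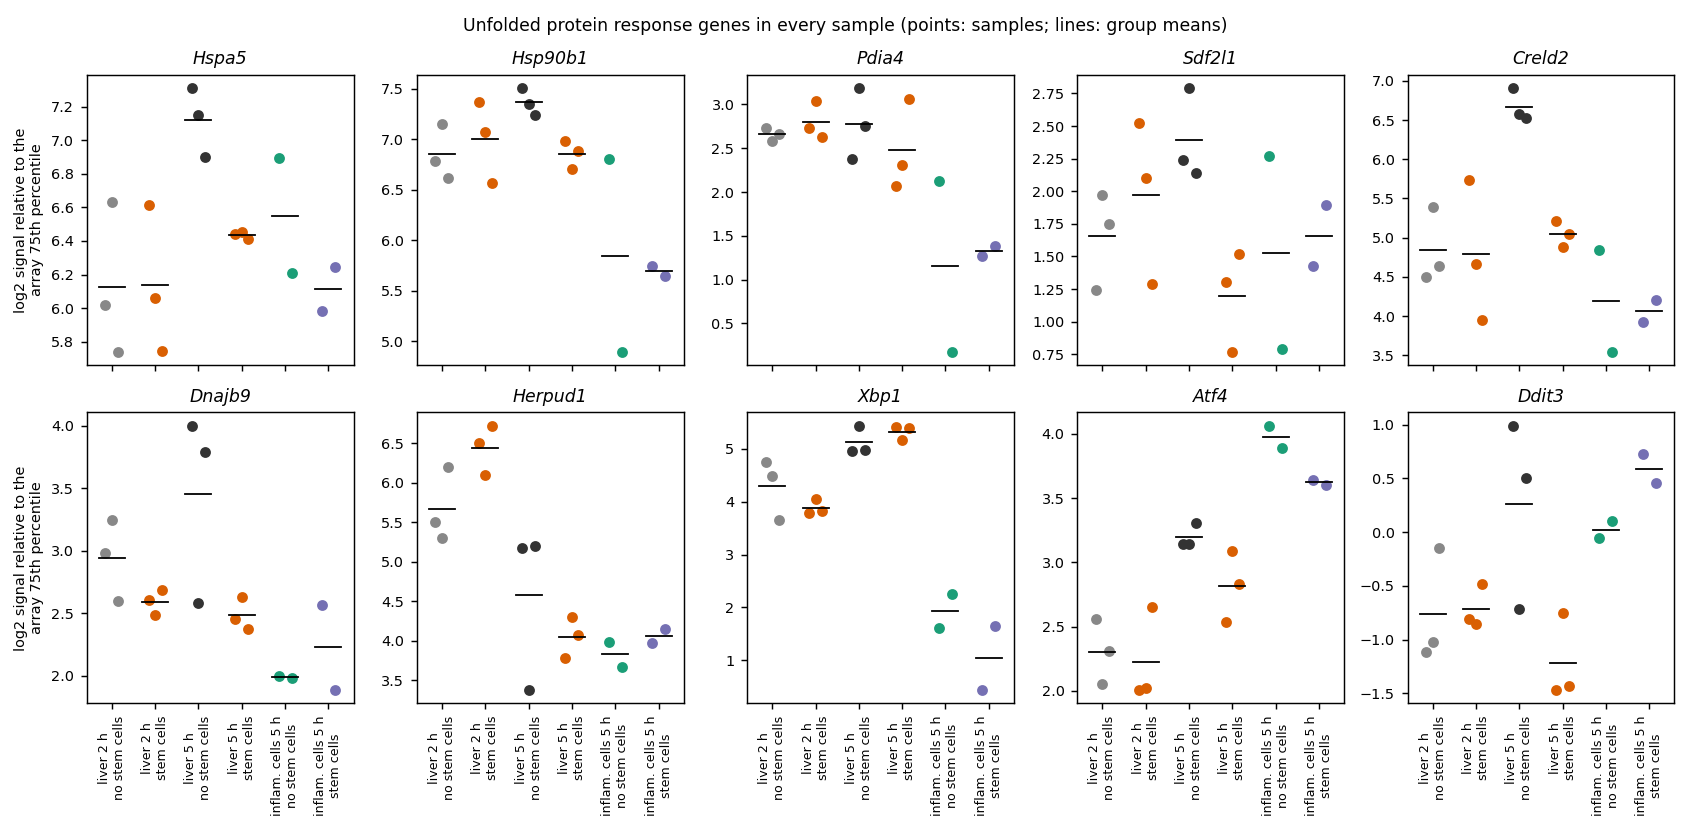
Level of each of the 10 genes (log2 signal relative to the array 75th percentile; each panel has its own scale) in the 16 samples, by group. Points are samples in the order of their numbers and lines are group means. The 3 untreated livers at 5 h lie above all other livers for Hspa5, Creld2 and Atf4, and the 4 samples of inflammatory cells lie below all livers for Xbp1.

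The livers without stem cells give the course of the response to concanavalin A alone, as 5 h against 2 h. Creld2 had the largest increase, 1.83 ± 0.39 (standard error of the fit, n = 3 per group), or 3.55-fold. Ddit3 was higher by 1.02 ± 0.42, Hspa5 by 0.99 ± 0.26, Atf4 by 0.89 ± 0.21, Xbp1 by 0.83 ± 0.26, Sdf2l1 by 0.74 ± 0.34, and Hsp90b1 and Dnajb9 by 0.52 each (± 0.21 and ± 0.32). Pdia4 was nearly level at 0.11 ± 0.27, and Herpud1 was lower by -1.08 ± 0.45. The median of the 10 was 0.78, beside -0.076 over all 14447 genes tested. By limma 3 of the 10 were past the adjusted p threshold of 0.05, all of them higher, a count on values that chose the genes, where 15.9% of all genes passed and 6.52% were higher (942 higher and 1350 lower, or 955 and 679 with each array scaled to its median). The groups did not overlap for 6 genes that were higher, beside 15.2% of all genes, and for Herpud1, which was lower, beside 20.8%. The count of 3 was 1 without mouse 6 or mouse 13, 0 without mouse 4, 2 without mice 10 and 13 together, and 1 when only the 6 arrays compared were fitted. Cell type markers moved too. Summed neutrophil markers were 3.86 to 6.36 at 2 h and 7.14 to 7.66 at 5 h, endothelial markers 5.23 to 5.44 and 4.25 to 4.78, and leukocyte markers 3.90 to 4.07 and 3.59 to 3.89, each without overlap, while those of the other 5 lists overlapped. By single gene, 6 of 6 neutrophil markers were higher at 5 h, while 3 of 5 endothelial and 3 of 4 leukocyte markers were lower and the others higher. The part of these marker changes in the result was not tested.

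The wider pathway list was also drawn up with earlier results of these data known, so its counts here and below are no independent support. It holds 76 other genes of the same pathway, of which 74 were tested in liver, and was described in the same contrast. Of these, 8 rose and 3 fell by limma, where 6.52% of all genes rose and 9.34% fell, and 50 lay above 0, beside 43.9% of all genes. The largest rises were Mthfd2, a mitochondrial folate enzyme (2.52 ± 0.75, well above background in 1 of 3 livers at 2 h), Ero1a, the oxidase that drives disulfide formation (1.79 ± 0.49), and Chac1, a glutathione-degrading enzyme induced by ATF4 (1.51 ± 0.37). Manf, a secreted stress-responsive factor, rose by 1.22 ± 0.29, the chaperone gene Hspa13 by 1.03 ± 0.20, Wfs1 by 0.89 ± 0.22, Cebpb by 0.79 ± 0.21 and Srprb by 0.59 ± 0.15. The lipoprotein receptor gene Vldlr fell by 1.70 ± 0.36, the liver transcription factor gene Creb3l3 fell by 0.80 ± 0.19, and Derl2, of the degradation machinery, fell by 0.48 ± 0.14. The sensor genes did not pass, with Ern1 at -0.0063 ± 0.30, Eif2ak3 at 0.20 ± 0.35 and Atf6 at 0.27 ± 0.19. By group, the medians were 0.32 for 20 chaperones and folding enzymes, 0.27 for 22 degradation and translocation genes, 0.24 for 12 sensors and regulators and 0.52 for 20 PERK and ATF4 targets.

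The 5 h livers show the response with stem cells given at 3 h against none. Of the 10 genes, 9 were lower with stem cells: Creld2 by -1.62 ± 0.39 (3.08-fold), Ddit3 by -1.48 ± 0.42 (2.79-fold), Sdf2l1 by -1.20 ± 0.34, Dnajb9 by -0.97 ± 0.32, Hspa5 by -0.69 ± 0.26, Herpud1 by -0.53 ± 0.45, Hsp90b1 by -0.51 ± 0.21, Atf4 by -0.38 ± 0.21 and Pdia4 by -0.29 ± 0.27. Xbp1 was the exception at 0.20 ± 0.26. The median was -0.61, beside 0.079 over all genes. By limma 0 of the 10 passed after adjustment (0.0346% of all genes) and 6 had an unadjusted p under 0.05 (12.5% of all genes), counts on values that chose the genes and no support for them. The groups did not overlap for 6 genes, all lower with stem cells (Creld2, Ddit3, Sdf2l1, Hspa5, Hsp90b1 and Atf4), beside 9.44% of all genes that were lower without overlap. The contrast shares its untreated livers with the time contrast above, so a high level in mice 4, 5 and 6 enters both.

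The difference in the 5 h livers was of like size on each slide for some genes and not for others. Within slides 1, 2 and 3, Creld2 differed by -1.70, -1.53 and -1.65, Hsp90b1 by -0.53, -0.47 and -0.53, and Sdf2l1 by -0.94, -1.28 and -1.37. Hspa5 gave -0.87, -0.74 and -0.45. Ddit3 gave -2.46, -0.71 and -1.26, and Dnajb9 gave -1.55, -0.21 and -1.17, the small values being those of slide 2, which held mouse 5. Herpud1 changed sign there, with -1.39, 0.70 and -0.90. On slide 3, where the array positions were swapped, the signs were those of slide 1 for all 10 genes. Without mouse 5 the median over the 10 genes was -0.83.

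**Figure D2:**
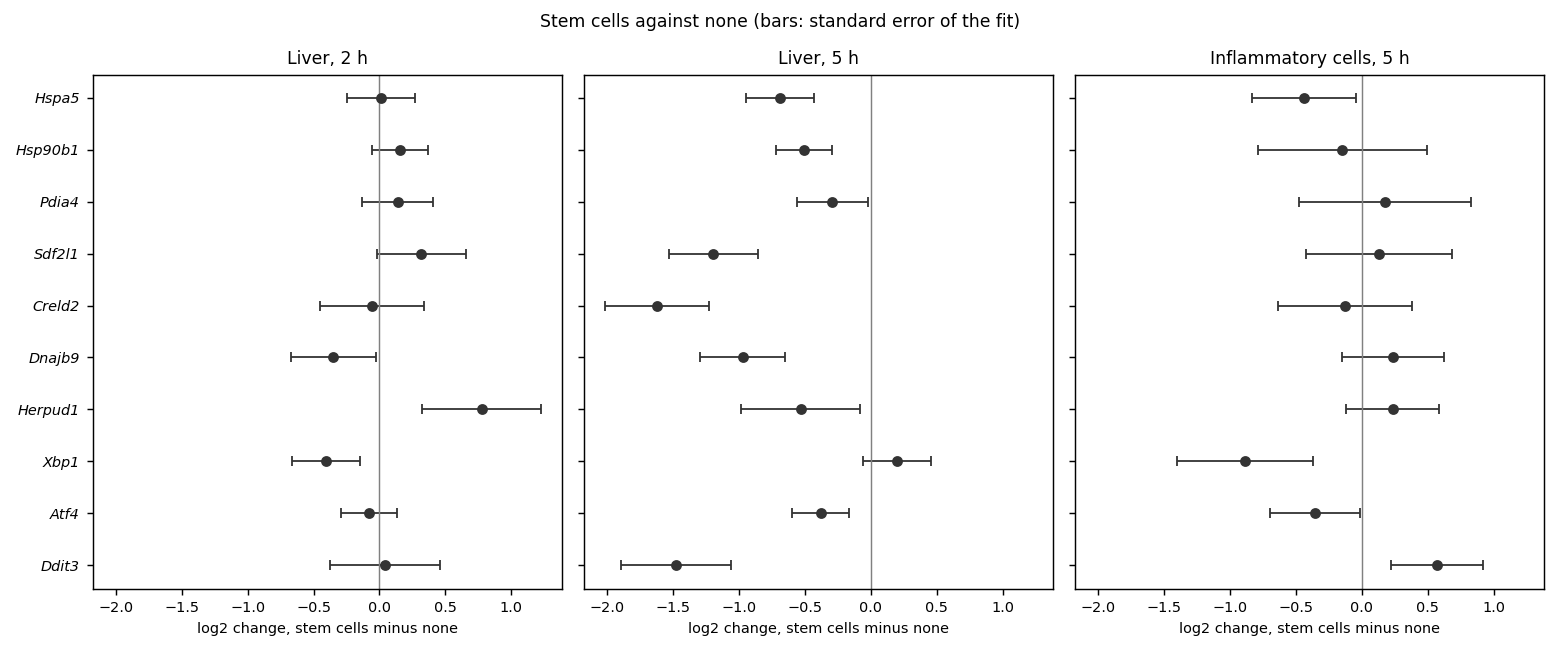
Log2 change of the 10 genes with stem cells against none (x axis) in the 2 h livers, the 5 h livers and the inflammatory cells; bars are the standard error of the fit. In the 5 h livers 9 of 10 genes lie below 0 with Creld2 and Ddit3 lowest, while in the 2 h livers and the inflammatory cells the genes lie on both sides of 0.

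In the wider pathway list, 0 of 74 genes passed by limma in the 5 h livers and 52 lay below 0, where 60.2% of all genes lay above it. Of 20 chaperones and folding enzymes 18 lay below 0 (median -0.30), of 22 degradation and translocation genes 17 (median -0.24), of 12 sensors and regulators 7 (median -0.26), and of 20 PERK and ATF4 targets 10 (median 0.00085). The sensor gene Eif2ak3 had -0.90 ± 0.35, Ern1 0.060 ± 0.30 and Atf6 0.14 ± 0.19. Summed levels of 3 of the 8 marker lists did not overlap in the same livers: endothelial markers were 4.25 to 4.78 without and 4.89 to 5.37 with stem cells, B and plasma cell markers 4.04 to 4.19 and 4.32 to 4.53, and T cell markers -0.25 to 0.043 and 0.18 to 0.23. Those of the other 5 overlapped, with hepatocyte markers at 11.5 to 11.9 and 11.6 to 12.1, neutrophil markers at 7.14 to 7.66 and 7.54 to 7.90, and macrophage markers at 5.06 to 5.60 and 5.58 to 5.96. By single gene, 4 of 5 endothelial, 7 of 8 B and plasma cell and 4 of 4 T cell markers were higher with stem cells. The part of cell composition in the lower values of the 10 genes was not tested.

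**Figure D3:**
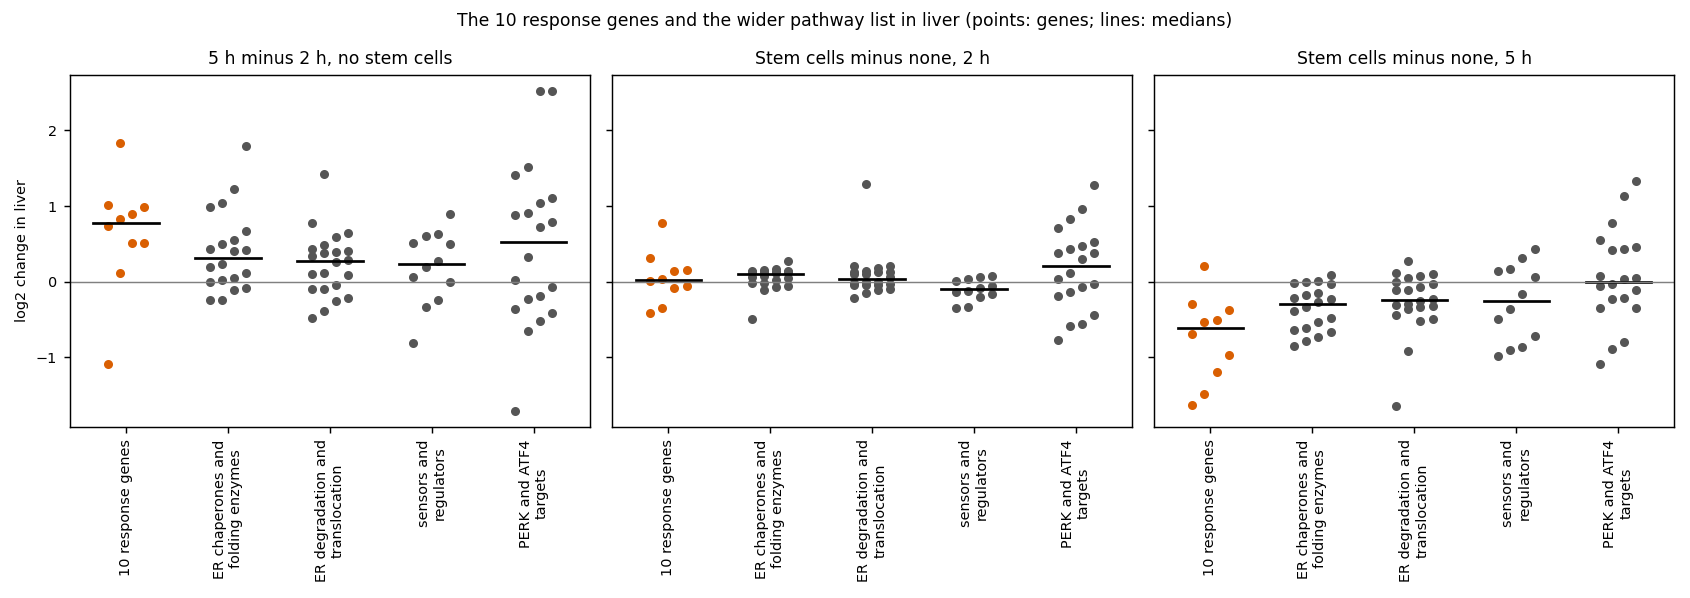
Log2 change in liver (y axis) of the 10 response genes and of the 4 groups of the wider pathway list, in 3 contrasts; points are genes and lines are medians. In the 5 h livers with stem cells against none the medians of the 10 genes and of 3 of the 4 groups lie below 0, and that of PERK and ATF4 targets lies at 0.

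Stem cells given together with concanavalin A were compared with none in the 2 h livers. By limma 0 of the 10 genes passed and 0 had an unadjusted p under 0.05 (0.0208% and 5.59% of all genes), and 0 had groups without overlap (8.17% of all genes). The median was 0.027, beside 0.076 over all genes. Herpud1 had the largest value, 0.77 ± 0.45 (95% interval -0.22 to 1.77), followed by Xbp1 at -0.41 ± 0.26 and Dnajb9 at -0.35 ± 0.32. Creld2 had -0.057 ± 0.39 with an interval from -0.93 to 0.81, and Hspa5 0.012 ± 0.26 with an interval from -0.56 to 0.59. Adjusted p by limma ran from 0.864 to 0.996 over the 10 genes. The untreated 2 h livers also entered a contrast that chose the genes, and these p-values do not allow for that. Without mice 10 and 13 the median was 0.23, Xbp1 had -0.70 ± 0.21 and Sdf2l1 0.71 ± 0.35, and again 0 passed. In the wider pathway list 0 of 74 genes passed, with 42 above 0, beside 62.5% of all genes.

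The difference between the 2 stem cell effects, at 5 h minus at 2 h, mixes time and schedule and draws on the 5 h values that chose the genes. It was below 0 for 9 of the 10 genes, where 53.1% of all genes lay above 0, with Creld2 at -1.57 ± 0.55, Ddit3 at -1.52 ± 0.59, Sdf2l1 at -1.51 ± 0.48 and Herpud1 at -1.31 ± 0.63, and above 0 for Xbp1 (0.61 ± 0.37). The median was -0.68, beside 0.020 over all genes. By limma 0 of the 10 passed (0.0138% of all genes) and 3 had an unadjusted p under 0.05 (4.67% of all genes), from which nothing is read for the same reason. Of the 74 wider genes 0 passed and 56 lay below 0, among them 19 of 20 chaperones and folding enzymes.

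In livers that had received stem cells, 5 h was compared with 2 h, which likewise mixes time with the schedule. The treated 5 h livers also entered a contrast that chose the genes, and the adjusted p-values of this comparison do not allow for that. Herpud1 fell by 2.39 ± 0.45 (5.24-fold lower, adjusted p = 0.00661 by limma), and Xbp1 rose by 1.44 ± 0.26 (2.71-fold, adjusted p = 0.00554 by limma). These 2 of 10 genes passed, where 18.7% of all genes passed in either direction (9.88% lower and 8.85% higher). They were also the 2 whose groups did not overlap, as in 42.9% of all genes in either direction (24.4% lower and 18.5% higher). The count that passed is near the share of all genes, and that without overlap is below it. Creld2, which was higher at 5 h in untreated livers, had 0.26 ± 0.39 here (95% interval -0.61 to 1.13), and Hspa5 had 0.29 ± 0.26. Atf4 had 0.59 ± 0.21 (adjusted p = 0.0812) and Sdf2l1 -0.78 ± 0.34 (adjusted p = 0.135). Both passed with mouse 10 and mouse 13 left out, Atf4 at 0.80 ± 0.20 (adjusted p = 0.0234 by limma) and Sdf2l1 at -1.12 ± 0.32 (adjusted p = 0.0383 by limma), and Creld2 was then at -0.16. Both also passed with array weights (0.75 and -0.84), and Atf4 without mouse 10 alone (0.80). Herpud1 (-2.25) and Xbp1 (1.41) passed in that setting too. Within slides 1, 2 and 3, with 1 liver of each group per slide, Sdf2l1 had -1.22, 0.23 and -1.34. Atf4 had 0.53, 0.18 and 1.06 there.

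Within the wider pathway list 4 of 74 genes rose and 4 fell in the same treated livers, where 8.85% of all genes rose and 9.88% fell. Ero1a rose by 1.63 ± 0.49, Asns, the asparagine synthetase and an ATF4 target, by 1.46 ± 0.31, Chac1 by 1.24 ± 0.37 and the sensor gene Atf6 by 0.61 ± 0.19 (adjusted p = 0.046 by limma). Vldlr fell by 1.32 ± 0.36, Derl2 fell by 0.80 ± 0.14 and the disulfide isomerase gene Txndc5 fell by 0.70 ± 0.19. The eIF2 alpha phosphatase subunit gene Ppp1r15b was the other gene that fell. The sensor genes Eif2ak3 (-0.53 ± 0.35) and Ern1 (0.14 ± 0.30) did not pass. The treated and the untreated time contrasts share no livers, and the difference between them is the difference of stem cell effects given above.

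**Figure D4:**
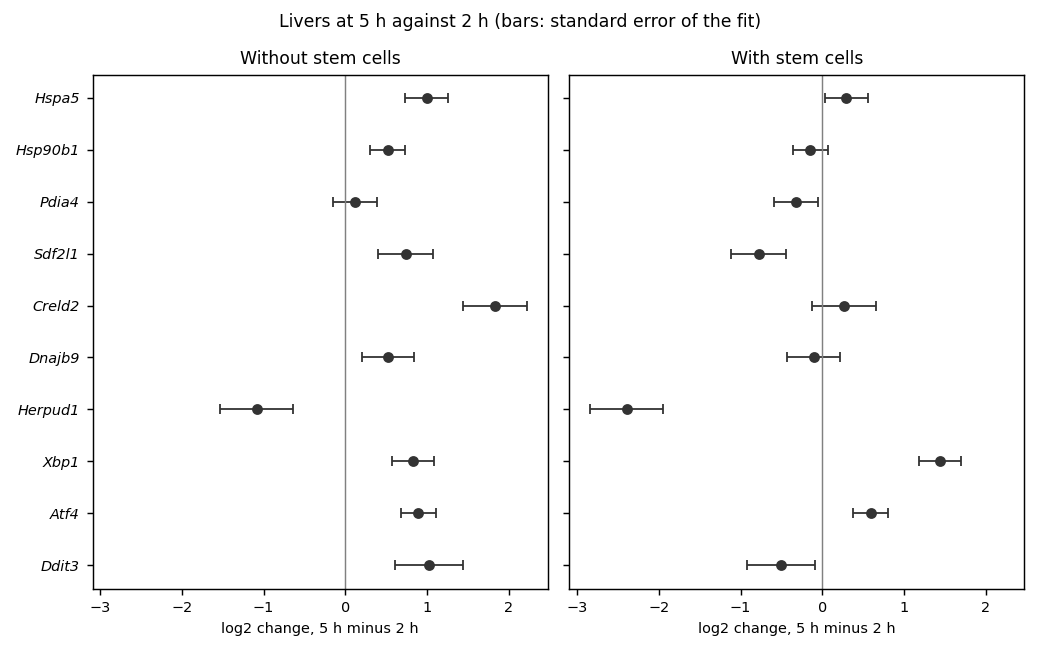
Log2 change of the 10 genes at 5 h against 2 h (x axis) in livers without and with stem cells; bars are the standard error of the fit. Herpud1 is lower and Xbp1 higher in both panels, while Creld2 is at 1.83 without and 0.26 with stem cells.

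The same treatment, stem cells at 3 h against none, was measured in hepatic inflammatory cells with 2 samples per group. By limma 0 of the 10 genes passed and 0 had an unadjusted p under 0.05 (0.0143% and 17.9% of all genes), and 5 lay on each side of 0, beside 55.3% of all genes above it. Ddit3 was higher with stem cells at 0.57 ± 0.35 and Atf4 lower at -0.36 ± 0.34, both without overlap between the groups, as in 27.6% of all genes that were higher and 25% that were lower. Xbp1 had -0.89 ± 0.52 and Hspa5 -0.44 ± 0.39. The errors of several chaperones were wide: Hsp90b1 had -0.15 ± 0.64, Pdia4 0.17 ± 0.65 and Sdf2l1 0.13 ± 0.56, with sample 983 above both treated samples and sample 985 below both. The median was 0.44 without sample 983 and -0.59 without sample 985. Summed neutrophil markers were 7.11 to 7.70 without and 9.24 to 9.36 with stem cells, and macrophage markers 4.31 to 5.27 and 6.23 to 6.56. Leukocyte markers were 8.38 to 8.59 and 9.01 to 9.06, and endothelial markers 2.31 to 2.95 and 3.13 to 3.31. B and plasma cell markers were 6.68 to 7.43 and 7.44 to 7.58. None of these overlapped, while summed hepatocyte, T cell and mesenchymal markers did. The part of these marker changes was not tested. In the wider list 0 of 75 genes passed, and Eif2ak3 had 1.096 ± 0.44.

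The stem cell effect in inflammatory cells was also set against that in 5 h livers. This difference contains the 5 h liver change that chose the genes, so it is a description for the 10 genes. Ddit3 had the largest difference, 2.05 ± 0.61, of which -1.48 in liver is the part that chose it, and without mouse 5 it was 2.54. By limma 0 of the 10 genes passed (2.32% of all genes) and 3 had an unadjusted p under 0.05 (17.6% of all genes), and nothing is read from these counts. Creld2 had 1.49 ± 0.67, Sdf2l1 1.33 ± 0.64, Dnajb9 1.21 ± 0.51 and Xbp1 -1.09 ± 0.53. Of the 75 wider genes 1 passed, where 2.32% of all genes did. It was Eif2s1, which encodes eIF2 alpha itself, near the threshold at -1.60 ± 0.38 (adjusted p = 0.0479 by limma). Eif2ak3 had 1.99 ± 0.58 (adjusted p = 0.0899). Over all genes 371 passed, against 3 after normexp correction and 592 after quantile normalization. Whether Eif2s1 passed under those settings is not given.

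Inflammatory cells were compared with livers at 5 h, where most genes passed by limma: 61.2% of all genes without stem cells (31.9% lower and 29.2% higher in the cells) and 64% with them (35.8% lower and 28.1% higher). Both comparisons use the 5 h livers whose values helped to choose the genes, and the adjusted p-values do not allow for that choice. The differences of the 10 genes are therefore a description. Without stem cells 6 of the 10 genes passed. Xbp1 was 9.12-fold lower in the cells (-3.19 ± 0.37, adjusted p = 7.36e-06 by limma), Creld2 5.57-fold lower (-2.48 ± 0.47), Pdia4 3.07-fold lower (-1.62 ± 0.46), Hsp90b1 2.87-fold lower (-1.52 ± 0.42) and Dnajb9 2.77-fold lower (-1.47 ± 0.36). Atf4 was 1.72-fold higher in the cells (0.78 ± 0.24, adjusted p = 0.0118 by limma). With stem cells 5 passed: Xbp1 was 19.4-fold lower (-4.28 ± 0.37, adjusted p = 4.27e-07 by limma), Hsp90b1 (-1.16 ± 0.42) and Pdia4 (-1.15 ± 0.46) were lower, and Ddit3 (1.81 ± 0.43, adjusted p = 0.00257 by limma) and Atf4 (0.80 ± 0.24) were higher. Creld2 did not pass there (-0.99 ± 0.47, adjusted p = 0.0851). The shares of the 10 genes that passed, in either direction, are near those of all genes. Xbp1 passed in both comparisons under every setting tried, and several other calls lay near the threshold. With stem cells Hsp90b1 did not pass after quantile normalization (-0.15), with probes averaged (-1.06) or without mouse 1, mouse 3, sample 987 or sample 989 (-1.21 to -1.10). Pdia4 did not pass there after quantile normalization (-0.88), without the filter on dim probes, without mice 10 and 13 together, or without any 1 of mice 2, 3, 6, 8, 11 and 12 or of samples 987 and 989 (-1.24 to -0.86). Without stem cells Hsp90b1 did not pass after quantile normalization (-0.79), and neither it nor Pdia4 passed without sample 985 (-0.57 and -0.64) or when only the arrays compared were fitted. Atf4 did not pass after normexp correction without (0.86) or with stem cells (0.67), nor without stem cells when array weights were used or sample 983 was left out (0.74 and 0.69). Other genes newly passed: Creld2 with stem cells after normexp correction (-1.14), without mouse 8 or with only the arrays compared, and without stem cells Sdf2l1 without sample 983 (-1.60) and Herpud1 without mouse 5 (-1.36).

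Of the 75 genes of the wider list, 36 were lower and 7 higher in the cells without stem cells by limma, and 40 and 9 with them. Without stem cells 12 of 20 chaperones and folding enzymes and 15 of 22 degradation and translocation genes were lower in the cells and 0 were higher. PERK and ATF4 targets had 6 higher and 5 lower of 20, and sensors and regulators 1 higher and 4 lower of 13. With stem cells the counts were 11 lower and 0 higher, 13 lower and 1 higher, 8 lower and 6 higher, and 8 lower and 2 higher, and the difference between these groups was not tested. Without stem cells the serine synthesis genes Phgdh (5.43 ± 0.82) and Psat1 (4.48 ± 0.55) and Mthfd2 (2.91 ± 0.89) were higher in the cells. Creb3l3 (-7.75 ± 0.42) and the cysteine synthesis gene Cth (-7.63 ± 0.46) were lower, and Vldlr was at least 18.1-fold lower, with 0 of 2 cell samples above background. That bound sets the mean of the livers against, on each dim array, the higher of the signal of the probe and the lowest signal well above background. With stem cells Phgdh (3.50 ± 0.82), the stress-response gene Sesn2 (3.34 ± 0.76) and Psat1 (2.52 ± 0.55) were higher, Creb3l3 (-7.20 ± 0.42) and Cth (-6.44 ± 0.46) were lower, and Vldlr was at least 27.1-fold lower. Of the sensors, Eif2ak3 was higher (2.05 ± 0.41) and Atf6 lower (-0.98 ± 0.25) in treated cells, both passing, while none of the 3 passed without stem cells (Ern1 -0.54 ± 0.38, Eif2ak3 0.062 ± 0.41, Atf6 -0.13 ± 0.25).

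**Figure D5:**
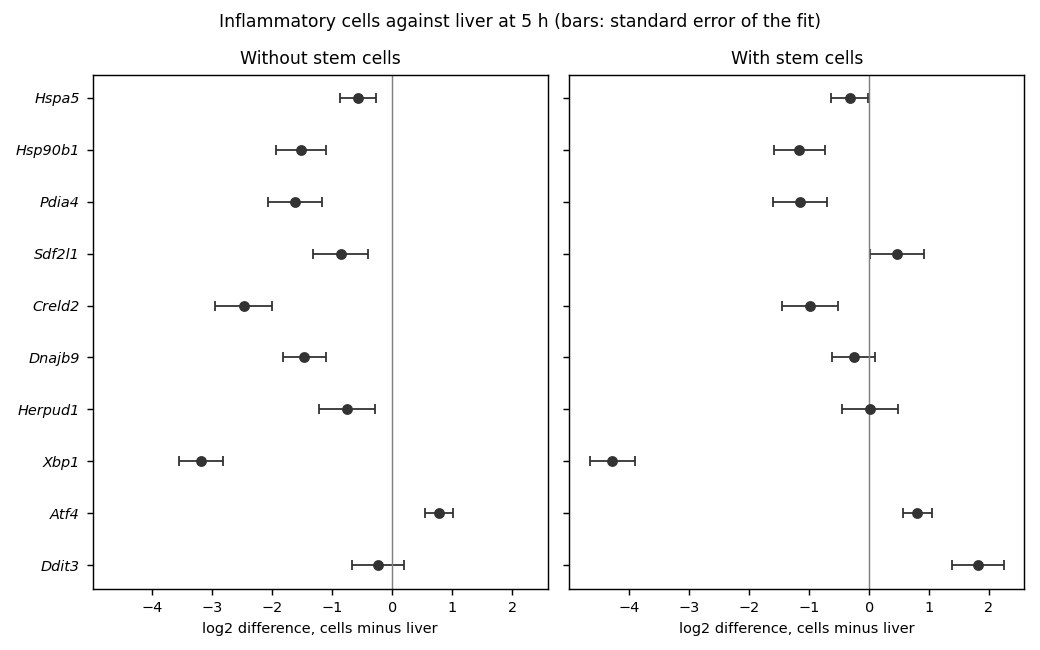
Log2 difference of the 10 genes between inflammatory cells and liver at 5 h (x axis), without and with stem cells; bars are the standard error of the fit. Xbp1 lies farthest below 0 in both panels and Atf4 lies above 0 in both, and Ddit3 is at -0.24 without and 1.81 with stem cells.

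Over the 12 livers the 10 genes did not follow 1 pattern. Each gene was centred and scaled and the mean of the 10 was taken per liver, and Creld2 followed that mean most closely (Pearson r = 0.94), then Hspa5 (0.87), Hsp90b1 (0.84), Dnajb9 (0.73), Sdf2l1 (0.72), Ddit3 (0.69) and Atf4 (0.54). Xbp1 (0.32), Pdia4 (0.23) and Herpud1 (-0.21) followed it least. Among 14423 other genes, those with the highest correlation included Cad (0.93), the first enzyme of pyrimidine synthesis, Camsap1, Zfp410 and Rsrp1 (0.90 each), Dnajb11 and Ssr1 (0.89 each), Zfp131 (0.89), Gmppb (0.89) and Nup35 (0.89). Dnajb11 is a cochaperone of BiP and Ssr1 a subunit of the translocon-associated protein complex. The lowest were Mmd (-0.94), Frat1 (-0.92), Tbc1d22a (-0.90), Birc6 (-0.89) and Cd300lg (-0.89). These values describe likeness over livers that share their groups and slides, and some of these livers helped to choose the genes. The mean of the 10 includes each of the 10 genes itself, which raises the r of that gene.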

How the data were processed

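RNA of 16 samples was hybridised to single-colour Agilent mouse arrays. The deposited scanner output gives linear spot intensity. It came from Agilent Feature Extraction 10.5.1.1, as the submitters' processing notes and the headers state, and was background-subtracted, per the file headers. The authors' value table holds the same signals. Probe positions are on build mm8, per the file headers.

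Control spots (1639 per array) were left out of 43379 others, 55 to 100 outlier spots per array were set to missing, spots of a probe were averaged, and log2 processed signal was taken relative to the array's 75th percentile. A gene was represented by its brightest kept probe (well above background on at least 3 livers, 2 samples of cells, or 2 of all 16). limma 3.58.1 in R 4.3.3 fitted group means over 12 livers (14447 genes), 4 samples of cells (14025) and all 16 arrays (16022), with 2-sided Benjamini-Hochberg adjusted p under 0.05 over all genes of a fit. Every error after ± is the standard error of the fit, and every adjusted p is from limma. The number of arrays limits the precision. The fits were tested on simulated data.

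The members and lists were chosen with earlier results of these data known. Named besides the members were, from the wider list, up to 3 genes per direction with the largest change past the threshold without overlap, the sensor genes, and the 10 most and 5 least alike genes, of which 1 is not reported here; other wider genes that passed between 2 h and 5 h were named after their values were seen. No p is given per member for contrasts in view when they were chosen. Alternatives were background correction, normalization, filter, probes averaged, arrays fitted, array weights, slide, and libraries left out. Protein sequences were not used here.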

Additional observations from a re-analysis of the deposited data

Results flagged for a closer look

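Ddit3 lay higher with stem cells in both samples of inflammatory cells than in either untreated one, and lower with stem cells in all 3 treated livers at 5 h than in any untreated one. Of all genes, 27.6% were higher without overlap in the cells and 9.44% lower without overlap in the 5 h livers. The change in cells was 0.57 ± 0.35, and in liver untreated mouse 5 (-0.72) lay barely above treated mouse 2 (-0.76). The change in cells minus the change in liver was 2.05 ± 0.61. It contains the 5 h liver values by which the genes were chosen, so it is a description and no test of it is given.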

How the results depend on the processing

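Of 2120 values of single genes under other settings, 1972 kept direction and side of the threshold or moved by less than the error. Of the others, 66 moved further, 43 no longer passed, 19 newly passed and 20 turned sign. The sign also turned within the error for 46 values. Of 409 medians and counts over the 10 genes, 367 stayed close to the value reported. No paired analysis was possible because the groups share no replicate numbers; slide as a block, with 1 liver of each group per slide, changed no call of the 10 genes in the liver contrasts. The number of arrays, 2 or 3 per group, limits all comparisons, and the cause of the shifts below was not tested. Array-median scaling shifted the median of all genes to 0.053 between untreated 2 h and 5 h livers and to -0.080 for stem cells at 5 h. Normexp correction gave 1 gene past the threshold between untreated livers at 2 h and 5 h and medians of -0.36 (stem cells, 2 h), 0.24 (treated livers over time) and -0.28 (difference of effects); it turned Hspa5 (-0.47), Hsp90b1 (-0.33), Sdf2l1 (-0.086) and Pdia4 (-0.20) for stem cells at 2 h, and Hsp90b1 (0.26) and Dnajb9 (0.22) in treated livers over time. Quantile normalization gave medians of -0.74 and 0.39 for cells against liver without and with stem cells and 3 genes past the threshold with them; Hspa5 turned to 0.13 without stem cells, and with them Creld2 turned to 0.051, Hspa5 to 0.60 and Dnajb9 to 0.19. With only the arrays compared, 1 gene passed between untreated livers. Array weights gave a median of 0.57 between untreated livers and -0.51 for the difference of effects, 2 genes past the threshold for stem cells at 5 h (of 228 over all genes, against 5 without weights) and 4 in treated livers over time, and turned Hspa5 to -0.26 for stem cells at 2 h. Without mice 10 and 13 the median for stem cells at 2 h was 0.23, 4 genes passed in treated livers over time, and Creld2 turned to -0.16 there. Within slides 1 and 2 the median was 0.58 and 0.57 between untreated livers, -0.90 and -0.39 for stem cells at 5 h, and -0.88 and -0.44 for the difference of effects; in treated livers over time it was -0.46, 0.27 and 0.12 within slides 1, 2 and 3, and for stem cells at 2 h it was -0.16 within slide 2. Leaving out 1 library at a time, the count past the threshold ran from 0 (without mouse 4) to 4 between untreated livers, from 0 to 1 (without mouse 5) for cells against liver effects, and from 3 (without mouse 3, sample 987 or sample 989) to 5 for treated cells against liver. The median ran from -0.83 (without mouse 5) to -0.54 for stem cells at 5 h, from -0.022 to 0.22 (without mouse 10) for stem cells at 2 h, from -0.89 to -0.52 for the difference of effects, from -0.59 to 0.44 for stem cells in inflammatory cells, from -1.54 to -0.58 for untreated cells against liver and from 0.26 to 1.27 for cells against liver effects, the ends of the last 3 being those without sample 983 or sample 985. Creld2 ran from -0.53 to 0.36 for stem cells at 2 h and from -0.16 to 0.74 in treated livers over time. In inflammatory cells Creld2 ran from -0.78 to 0.52, Hsp90b1 from -1.11 to 0.81, Sdf2l1 from -0.61 to 0.87 and Pdia4 from -0.80 to 1.15 for stem cells against none, and in the cells against liver effects Hsp90b1 ran from -0.60 to 1.32 and Pdia4 from -0.51 to 1.45.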
